A study of Mus musculus with 8 samples.

Results

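The genes examined here act on cell division, some as its brakes and some, such as Mdm2 and the D cyclins, against those brakes. They comprise the CIP/KIP inhibitors of cyclin-dependent kinases (Cdkn1a, Cdkn1b and Cdkn1c) and the p53 gene Trp53 with its regulators Mdm2 and Ccng1. The others are the D cyclins Ccnd1, Ccnd2 and Ccnd3 and the retinoblastoma gene Rb1. The 10 genes were chosen by name, as the rows of the deposited gene table that carry these symbols, and all 10 were found among its 14012 genes. Quadriceps femoris of mice labelled as lacking Grpel1 in skeletal muscle was set against that of controls. In the mice labelled as lacking Grpel1, Cdkn1a mRNA was 12.0-fold higher, Rb1 2.41-fold and Trp53 1.70-fold higher, and Ccng1 2.87-fold lower. With 4 libraries in each group, the groups did not overlap for any of these 4 genes, which held for 53.4% of all genes. Because earlier results of this same comparison were known when the 10 genes were picked, their differences between the groups are given as a description. No p-value is given for any of the 10, and nothing is read from how many passed a threshold.

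Polyadenylated RNA of the quadriceps femoris, the large muscle of the front of the thigh, was sequenced from 4 mice labelled KO (Grpel1 smk -/-) and 4 labelled WT (Grpel1 flox/flox). GRPEL1 is a nucleotide exchange factor of the mitochondrial HSP70 that pulls proteins into the matrix. All 8 mice carried floxed Grpel1, in the KO mice together with a Cre recombinase under the human skeletal actin promoter, which acts in muscle fibres and not in the other cells of the muscle, and which was switched on by tamoxifen from 5 weeks of age. Whether the WT mice of these libraries had also received tamoxifen, and the age at which the muscles were taken, are not given in the sources used here, so an effect of tamoxifen cannot be told apart from that of the genotype. The study worked with male mice.

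The libraries held 16017565 to 18813042 counts in WT and 16424608 to 20361144 in KO. Levels are given in CPM, read counts relative to the size of the library after TMM scaling, which corrects for a few very abundant mRNAs taking up much of a library. The 20 most abundant genes took 36.4% to 39.5% of the counts in WT and 19.02% to 22.8% in KO, and with library totals alone the median of the log2 fold changes over all genes moves from 0.07 to 0.73. Grpel1 itself had 861 to 1087 counts in WT and 1461 to 1658 in KO, or 64.1 to 71.2 CPM against 59.9 to 71.9, so the count over the whole gene does not check the labels. The 10 marker genes of muscle fibres summed to 195470 to 250340 CPM in WT and 69258 to 98256 in KO, a sum to which the fast myosin gene Myh4 gave the most, at 103900 ± 16665 and 20582 ± 4678 CPM. Of these 10, 6 fell and 2 rose (Myh1 and Tnnt1), none was at 0 in any library, and their mean log2 CPM overlapped between the groups, at 11.40 to 11.93 in WT and 10.98 to 11.94 in KO. In whole muscle, fewer cells of a type and less RNA per cell cannot be told apart.

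As background, a cell leaves the resting phase when D cyclins activate CDK4 and CDK6, which phosphorylate the RB protein and so release the E2F factors that switch on genes of DNA replication. The CIP/KIP proteins p21, p27 and p57, encoded by Cdkn1a, Cdkn1b and Cdkn1c, bind cyclin-CDK complexes and hold this step. p53 is a transcription factor that is kept low by the ubiquitin ligase MDM2 and is stabilised by DNA damage and other stresses. Cdkn1a, Mdm2 and Ccng1 are textbook p53 target genes. In skeletal muscle the nuclei of fibres have left the cell cycle for good, p21, p57 and RB take part in that exit when myoblasts differentiate, and satellite cells are the cells that can still divide.

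The p53 response element, a pair of adjoining copies of a 10-base sequence, is shown for the promoters of 2 members because they were the ones with such a sequence and differed in opposite directions between the groups. RefSeq promoter windows on GRCm38.p6, covering 250 bases before a start site, were found for 6 of the 10 members in 8 windows, with none for Cdkn1c, Ccnd1, Ccnd2 and Rb1. Allowing 1 mismatch over the pair on either strand, 25 of 32851 windows in the table held the element, or 0.0761%. The window upstream of Cdkn1a at chr17:29090729-29090975, on the plus strand, held it from base -51 to base -32 before the start site, in capitals. The window upstream of Ccng1 at chr11:40755312-40755536, on the minus strand, held it from base -195 to base -176, also in capitals, together with 3 CCAAT boxes (CCAAT on either strand, a motif present in 33.8% of all windows) in capitals.
Cdkn1a upstream: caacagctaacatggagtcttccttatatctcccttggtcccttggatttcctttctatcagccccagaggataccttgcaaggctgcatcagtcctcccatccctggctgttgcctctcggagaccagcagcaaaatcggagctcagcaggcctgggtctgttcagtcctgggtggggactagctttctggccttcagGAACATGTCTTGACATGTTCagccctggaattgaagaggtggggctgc
Ccng1 upstream: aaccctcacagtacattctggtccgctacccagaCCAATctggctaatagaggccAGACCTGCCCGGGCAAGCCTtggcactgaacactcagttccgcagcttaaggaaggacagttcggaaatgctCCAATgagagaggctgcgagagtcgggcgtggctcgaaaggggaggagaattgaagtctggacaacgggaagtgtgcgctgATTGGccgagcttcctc
Both stretches end before the annotated exons and are read 5′ to 3′ along the gene.

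A match to these letters is a description of the sequence, and binding of p53 was not measured. The position given for the element of Cdkn1a counts from its first start site, at base 29090979. A second start site in the table, at base 29093769, lies inside an intron of the longer transcript. Its window held 2 GC boxes (GGGCGG on either strand, in 32.7% of all windows) and no such element. The windows of Cdkn1b, Mdm2, Trp53 and Ccnd3 held no p53 element at this stringency, which says only that these letters are not in these windows. Of the other 23 genes with such a window, 4 were in the gene table. Among them Rps27l, which encodes a ribosomal protein-like p53 target, rose from 54.4 ± 4.54 to 90.9 ± 4.58 CPM (SD, n = 4 each), and Mthfd1, Calhm2 and Bank1 did not pass the test. These 4 genes are named because they hold the element, after their values were seen.

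Among the 10 genes, 5 passed edgeR's quasi-likelihood test at an adjusted p under 0.01, 3 higher and 2 lower in KO, where 44.7% of all genes passed, 23.6% higher and 21.1% lower. The groups did not overlap for 6 members, where this held for 53.4% of all genes. The log2 fold change was above 0 for 7 members, as for 54.2% of all genes, and its median was 0.30 over the members and 0.07 over all genes. Nothing is read from these counts, since the members were picked with the contrast known.

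**Figure D1:**
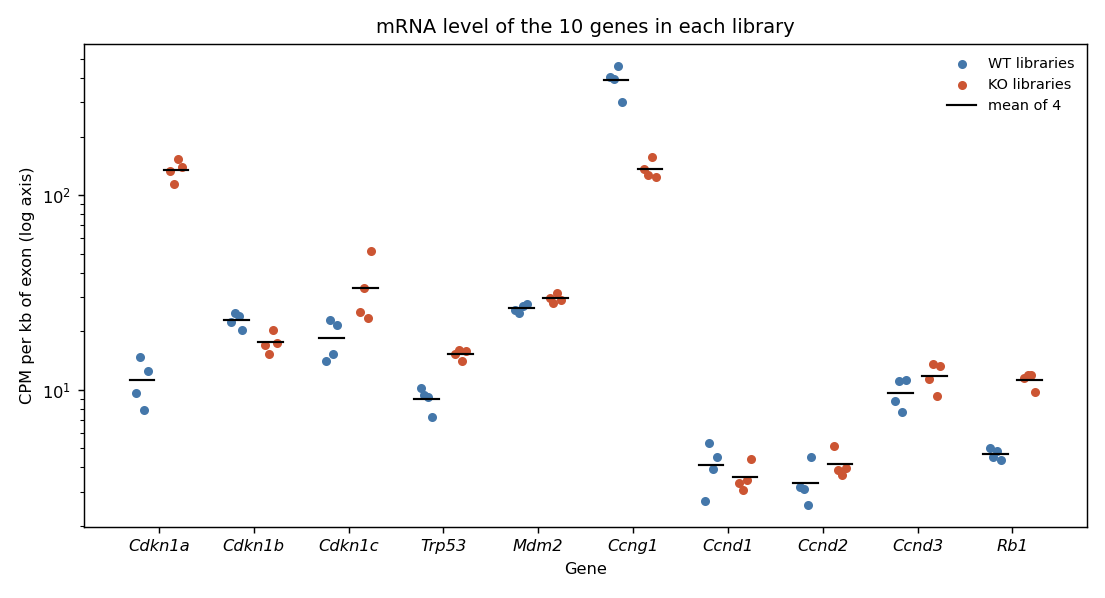
mRNA level of the 10 genes in CPM per kilobase of exon on a log axis, with 1 point per library (blue WT, red KO, n = 4 each) and a black line at each group mean. Cdkn1a goes from 11.2 to 134.7 CPM per kb and meets Ccng1, which goes from 390.3 to 136.0, while the points of Cdkn1b and the D cyclins overlap between groups.

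Cdkn1a (Entrez 12575, chromosome 17 from 29090979 to 29100722, plus strand of GRCm38) had 243, 461, 224 and 404 counts in WT1 to WT4 and 6459, 5075, 7520 and 7163 in KO1 to KO4. In CPM these were 19.6, 30.2, 16.03 and 25.5 in WT and 269.3, 232.4, 310.4 and 284.7 in KO. The lowest KO library thus lay far above the highest WT library, and WT2 and WT4 lay above WT1 and WT3. The mean was 22.8 ± 6.25 in WT and 274.2 ± 32.6 in KO (SD, n = 4 each), and the log2 fold change was 3.58 ± 0.19 (standard error), the 139th highest of the 14012. The coefficient of variation was 27.4% in WT and 11.9% in KO. Per kilobase of exon, Cdkn1a stood at the 70.9th percentile of all genes in WT and at the 97.3rd in KO.

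Cdkn1b (Entrez 12576, chromosome 6 from 134920401 to 134925525), the gene of p27, which holds resting cells out of the cycle and is controlled largely by protein breakdown, went the other way. Its level was 53.7, 59.8, 57.7 and 48.7 CPM in WT1 to WT4 and 40.8, 37.0, 49.0 and 42.0 CPM in KO1 to KO4. KO3 just exceeded WT4, so the groups overlapped, and the log2 fold change was -0.38 ± 0.10, or 1.303-fold lower, a direction that turned to 0.28 with library totals alone.

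Cdkn1c (Entrez 12577, chromosome 7 from 143458339 to 143461050), the imprinted gene of p57, was at 27.3, 44.6, 29.8 and 41.6 CPM in WT1 to WT4 and at 48.7, 64.8, 45.2 and 100.9 CPM in KO1 to KO4. The groups did not overlap but nearly met, at 44.6 in WT2 and 45.2 in KO3, and KO4 stood apart from the other KO libraries. The mean went from 35.8 ± 8.55 to 64.9 ± 25.5 CPM, a log2 fold change of 0.85 ± 0.26, or 0.54 without KO4. The KO spread, with a coefficient of variation of 39.3%, was the widest of the 10 genes in that group.

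The 3 CIP/KIP mRNAs thus changed places. On the scale of CPM per kb of exon, on which genes can be compared, they summed to 52.5 ± 7.65 in WT and 185.6 ± 20.9 in KO. Cdkn1a made up 21.1% ± 3.16 of that sum in WT and 72.6% ± 5.06 in KO, where its share ran from 66.8% to 77.7%. The share of Cdkn1b went from 44.1% ± 6.57 to 9.48% ± 0.86 and that of Cdkn1c from 34.8% ± 4.05 to 17.9% ± 5.88. Cdkn1b had the largest mean share in WT, with a range that overlapped that of Cdkn1c, and the smallest share in every KO library. These shares do not depend on how the libraries were scaled.

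**Figure D2:**
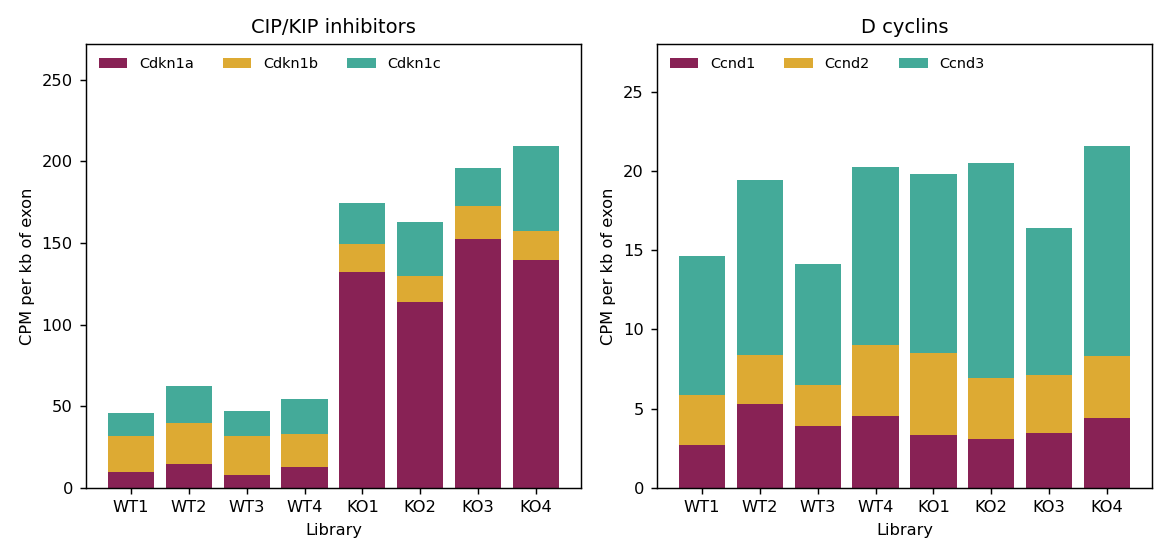
Stacked levels in CPM per kb of exon in each of the 8 libraries, with the CIP/KIP inhibitors on the left and the D cyclins on the right (each panel has its own axis, from 0). The CIP/KIP sum is 46.0 to 62.6 in WT and 162.9 to 209.2 in KO, most of the gain being Cdkn1a, while the D cyclin sums overlap at 14.2 to 20.2 and 16.4 to 21.6.

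Trp53 (Entrez 22059, chromosome 11 from 69580359 to 69591873), the gene of p53, was measured at 18.99, 17.5, 17.1 and 13.5 CPM in WT1 to WT4 and at 28.4, 29.9, 26.4 and 29.6 CPM in KO1 to KO4. Every KO library was above every WT library, and WT4 was the lowest. The mean went from 16.8 ± 2.31 to 28.6 ± 1.56 CPM, a log2 fold change of 0.77 ± 0.10. The mRNA does not measure p53 protein, which is governed mostly by its stability.

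Mdm2 (Entrez 17246, chromosome 10 from 117688875 to 117710758), both a target and the main inhibitor of p53, was at 79.7, 77.0, 83.8 and 85.1 CPM in WT1 to WT4 and at 92.1, 87.0, 97.8 and 89.2 CPM in KO1 to KO4. The ranges did not overlap, but the means of 81.4 ± 3.73 and 91.5 ± 4.68 CPM differed by a log2 fold change of only 0.17 ± 0.06. Mdm2 was the steadiest of the 10 genes within a group, with coefficients of variation of 4.58% in WT and 5.11% in KO. Its mRNA per kb was 2.98 ± 0.57 times that of Trp53 in WT and 1.94 ± 0.21 times in KO, and the ranges of this ratio, 2.53 to 3.79 and 1.76 to 2.23, did not overlap.

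Ccng1 (Entrez 12450, chromosome 11 from 40748552 to 40755286, minus strand) encodes cyclin G1, an unusual cyclin that brings the phosphatase PP2A to MDM2. It had 17377, 21046, 22454 and 16738 counts in WT1 to WT4 and 11407, 9681, 13256 and 10823 in KO1 to KO4. In CPM these were 1404, 1378, 1607 and 1055 in WT and 475.6, 443.3, 547.2 and 430.2 in KO. The groups lay well apart, the lowest WT library being WT4 and the highest KO library KO3. The mean went from 1361 ± 228.4 to 474.1 ± 52.4 CPM, a log2 fold change of -1.52 ± 0.14, which remained negative at -0.85 with library totals alone.

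The p53 targets Cdkn1a and Ccng1 thus differed between the groups in opposite directions. Per kb of exon, Ccng1 mRNA was 37.8 ± 15.9 times as abundant as Cdkn1a mRNA in WT, with a range of 24.2 to 58.5, and 1.01 ± 0.10 times in KO, with a range of 0.88 to 1.11. Ccng1 was the most abundant of the 10 in both groups, at the 99.1st percentile of all genes in WT, but in KO its range overlapped that of Cdkn1a.

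The D cyclins, which activate CDK4 and CDK6, each overlapped between the groups. Ccnd1 (Entrez 12443, chromosome 7 from 144929931 to 144939925), the D cyclin that answers growth factors, was at 10.2, 20.2, 14.9 and 17.1 CPM in WT1 to WT4 and 12.6, 11.6, 13.1 and 16.7 CPM in KO1 to KO4. The groups overlapped, with WT1 below all KO libraries, and the log2 fold change was -0.21 ± 0.19, or 0.45 with library totals alone. Ccnd2 (Entrez 12444, chromosome 6 from 127125708 to 127151048) was at 18.3, 17.8, 14.8 and 25.96 CPM in WT and 29.9, 22.4, 21.01 and 22.8 CPM in KO. Only WT4 reached into the KO range, and the log2 fold change was 0.32 ± 0.17, or 0.97 with library totals alone. Ccnd3 (Entrez 12445, chromosome 17 from 47505051 to 47599689), the D cyclin known to be kept on in differentiating muscle cells, was at 19.8, 25.01, 17.3 and 25.3 CPM in WT and 25.6, 30.6, 21.01 and 29.9 CPM in KO. WT2 and WT4 overlapped the KO range, and the log2 fold change was 0.29 ± 0.15, or 0.96 with library totals alone.

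Of the summed D cyclin mRNA per kb, Ccnd3 made up 56.6% ± 2.503 in WT and 60.3% ± 4.39 in KO, Ccnd1 23.9% ± 4.44 and 18.3% ± 2.91, and Ccnd2 19.5% ± 3.02 and 21.4% ± 3.57. All 3 pairs of ranges overlapped. Ccnd3 was therefore the main D cyclin of this muscle in every library.

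Rb1 (Entrez 19645, chromosome 14 from 73195502 to 73325791), which encodes the RB protein that holds E2F factors, was at 23.2, 20.9, 22.3 and 20.2 CPM in WT1 to WT4 and at 53.5, 55.1, 55.2 and 45.2 CPM in KO1 to KO4. The groups lay apart, and KO4 was the lowest of its group. The mean went from 21.7 ± 1.35 to 52.3 ± 4.77 CPM, a log2 fold change of 1.27 ± 0.08. Lpar6 lies inside the span of Rb1 on the opposite strand, and at 5.14 and 5.34 CPM it did not follow it.

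**Figure D3:**
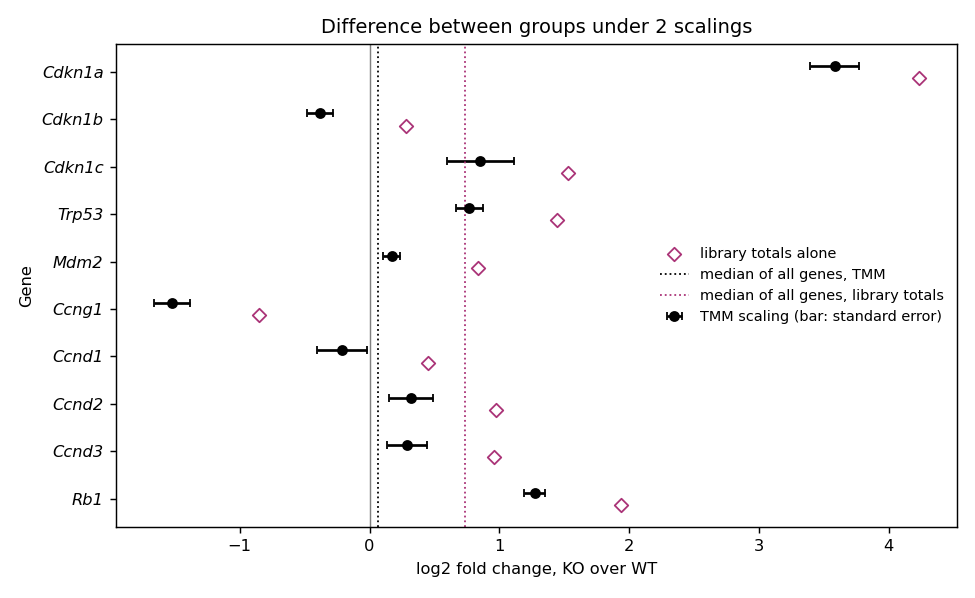
log2 fold change of KO over WT for the 10 genes with TMM scaling (black, with the standard error, n = 4 each) and with library totals alone (open diamonds), with dotted lines at the median of all genes under each scaling. The diamonds of all 10 genes lie to the right of the black points, along with the median (0.07 and 0.73), so that Cdkn1b and Ccnd1 change side of 0 while Cdkn1a, Ccng1, Trp53 and Rb1 do not.

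Ordered by CPM per kb, the members in WT ran Ccng1, Mdm2, Cdkn1b, Cdkn1c, Cdkn1a, Ccnd3, Trp53, Rb1, Ccnd1 and Ccnd2, from 390.3 ± 65.5 to 3.33 ± 0.82. Neighbours overlapped at every step but those from Ccng1 to Mdm2 and from Trp53 to Rb1. In KO the order was Ccng1, Cdkn1a, Cdkn1c, Mdm2, Cdkn1b, Trp53, Ccnd3, Rb1, Ccnd2 and Ccnd1, from 136.0 ± 15.0 to 3.56 ± 0.58. There the neighbours Cdkn1a and Cdkn1c, Mdm2 and Cdkn1b, Trp53 and Ccnd3, and Rb1 and Ccnd2 did not overlap. Rb1 went from the 52.0th to the 70.9th percentile of all genes and Trp53 from the 66.3rd to the 77.2nd.

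Within WT, Cdkn1a, Cdkn1c, Ccnd1 and Ccnd3 were each higher in WT2 and WT4 than in WT1 and WT3. The summed level of 8 endothelial markers was also higher in those libraries, at 487.1 and 514.6 CPM against 345.2 and 418.5. In WT the sums of macrophage and leukocyte, fibroblast, satellite cell, adipocyte and Schwann cell markers did not follow this split. That of muscle fibre markers was lower in WT2 and WT4. Within KO, Cdkn1c and Ccnd3 were highest in KO2 and KO4, as was the sum of 10 macrophage and leukocyte markers, at 299.3 and 248.8 CPM against 163.8 and 189.1 in KO1 and KO3. The fibroblast sum was split in the same way, at 1085 and 998.3 CPM against 706.7 and 819.7. So was the satellite cell sum, at 104.9 and 88.6 CPM against 81.4 and 83.9. The endothelial, adipocyte and Schwann cell sums did not follow this split in KO, and the muscle fibre sum was lower in KO2 and KO4. The part of other cell types in these values was not tested. Between the groups, macrophage and leukocyte markers summed to 73.0 to 191.1 CPM in WT and 163.8 to 299.3 in KO, with 1 of 10 past the threshold. The 8 endothelial markers summed to 345.2 to 514.6 and 267.5 to 294.0 CPM with 6 of 8 lower, the 8 fibroblast markers to 1790 to 2643 and 706.7 to 1085 CPM with 5 of 8 lower, and the 8 satellite cell markers to 74.6 to 98.99 and 81.4 to 104.9 CPM with 3 higher and 2 lower. None of these markers was at 0 in any library.

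Genes whose profile over the 8 libraries was most like that of Cdkn1a were sought among 12454 others with a mean of at least 1 CPM, by the root mean square difference of log2 CPM from each gene's WT mean. The closest were Reep6 at 0.24, Pck2 (mitochondrial PEP carboxykinase), Rassf7, Cyfip2 and Slc7a1 (a cationic amino acid transporter) at 0.29. Their log2 fold changes were 3.60 to 3.84, leaving out Rassf7, whose WT mean of 0.16 CPM was too low to give a fold. The place of Rassf7 depended on the prior count, and with 0.5 it was not among the 5. For Ccng1 the closest were Dhrs7c at 0.09, Lifr, Wbp1l, Dopey2 and Acta1, the skeletal muscle actin, at 0.11, with log2 fold changes of -1.39 to -1.53. Acta1 went from 44670 to 15460 CPM.

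A list of 40 further p53 target genes, without the members, was read beside them. Like all lists here, it was chosen with earlier results of these data known, so its counts are given as a description. Of these, 23 rose and 6 fell at an adjusted p under 0.01, or 57.5% and 15.0%, against 23.6% and 21.1% of all genes, and the median log2 fold change was 0.81 against 0.07. Among those that rose were Sesn2, a brake on mTORC1 and an antioxidant, from 4.11 ± 1.02 to 49.4 ± 11.5 CPM (log2 fold change 3.60 ± 0.21, adjusted p = 6.96e-07 by edgeR), and Gtse1, a microtubule-binding inhibitor of p53, from 1 to 3 counts per WT library to 41 to 81 per KO library. Gdf15, a secreted stress hormone, had 1, 0, 1 and 2 counts in WT1 to WT4 and 1555, 786, 1458 and 1307 in KO1 to KO4. A count of 0 allows up to 3 counts, worth 0.19 to 0.24 CPM in WT, and no fold is given for these low WT counts.

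Those that fell included Polk, a DNA polymerase that copies past damage, from 29.9 ± 7.16 to 7.83 ± 0.56 CPM (log2 fold change -1.93 ± 0.16, adjusted p = 4.78e-06 by edgeR), and Tigar, which turns glucose from glycolysis to the pentose phosphate path, from 200.5 ± 31.6 to 54.2 ± 5.54 CPM (-1.89 ± 0.12, adjusted p = 1.18e-06 by edgeR). Tob1, an antiproliferative gene, fell from 293.8 ± 32.4 to 151.4 ± 12.8 CPM. Ccng1 was thus not alone among p53 targets in being lower in KO. With library totals alone 2 of the 40 were lower instead of 6, and Tob1 was not past the threshold (log2 fold change -0.28).

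The p53 list shares genes with the stress response of ATF4 and CHOP. It was split by hand, from background knowledge and after the values were seen, so the 2 parts are only described. The genes taken as targets of ATF4 or CHOP too are Sesn2, Ddit4, Gdf15, Tnfrsf10b, Bbc3, Pmaip1 and Gadd45a. Of these 7, 6 rose, with a median log2 fold change of 2.54. Of the other 33, 17 rose and 6 fell, or 51.5% higher, with a median of 0.74. Members of the second part that rose, again named after their values were seen, were Zmat3 from 13.2 ± 1.16 to 29.5 ± 0.94 CPM, Bax, the pore former of apoptosis, from 13.5 ± 1.05 to 35.4 ± 4.33 CPM, Aen, a nuclease, from 36.7 ± 1.85 to 69.7 ± 5.82 CPM, and Eda2r, a receptor of the TNF family, from 18.03 ± 3.22 to 115.7 ± 22.3 CPM. Fas, Rrm2b and Ei24 of this part fell, at log2 fold changes of -0.56, -0.54 and -0.36, as did Polk, Tigar and Tob1 above. Phlda3 (-0.24), Sesn1 (-0.084), Ppm1d (0.24), Xpc (0.30) and Ddb2 (0.35), also of this part, did not pass the threshold.

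**Figure D4:**
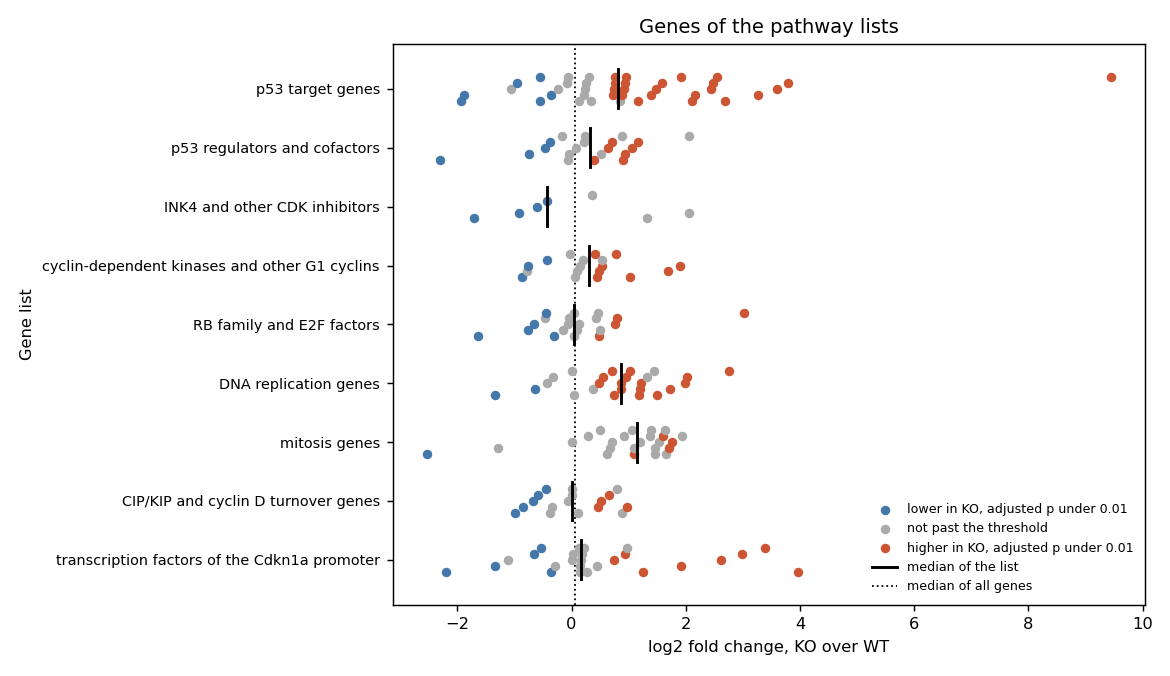
log2 fold change of KO over WT for each gene of 9 pathway lists (red higher, blue lower, grey not past an adjusted p of 0.01), with a black bar at the median of each list and a dotted line at that of all genes (0.07). The p53 targets (median 0.81), DNA replication genes (0.87) and mitosis genes (1.15) lie to the right, most mitosis genes being grey, and the point farthest to the right is Gdf15, whose place depends on the prior count because its WT counts were 0 to 2.

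Of 20 regulators and cofactors of p53 in the table, 7 rose and 4 fell, with a median log2 fold change of 0.32. As shares this was 35% and 20%, against 23.6% and 21.1% of all genes. Rpl5 and Rpl11, ribosomal proteins that can bind and block MDM2, rose from 137.3 ± 19.98 to 285.0 ± 19.5 CPM and from 114.0 ± 15.4 to 218.0 ± 3.02 CPM. Atr, a kinase of the DNA damage response, rose from 6.72 ± 0.35 to 15.1 ± 0.57 CPM. Hipk2, a kinase that activates p53, fell from 22.6 ± 8.87 to 4.59 ± 0.45 CPM (log2 fold change -2.30 ± 0.26, adjusted p = 3.91e-05 by edgeR). The acetyltransferase gene Ep300 fell from 66.7 ± 1.75 to 39.8 ± 1.19 CPM. Usp7, which removes ubiquitin from MDM2 and p53, fell from 106.1 ± 6.08 to 76.4 ± 3.31 CPM. Neither was past the threshold with library totals alone, at log2 fold changes of -0.076 for Ep300 and 0.20 for Usp7.

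The INK4 proteins block CDK4 and CDK6. Of 7 genes listed as INK4 and other CDK inhibitors, 4 fell and 3 did not pass the threshold, with a median of -0.43. The share that fell was 57.1%, against 21.1% of all genes. The list also held the acetyltransferase gene Kat2b, which counts among the 4. Of the INK4 genes, Cdkn2d and Cdkn2b fell, the latter from 2.55 ± 0.79 to 0.77 ± 0.11 CPM. Cdkn2c (log2 fold change 0.36) and Cdkn2a (2.06, from 0.16 to 0.68 CPM) did not pass, nor did Cdkn3 (1.32, from 0.37 to 0.93 CPM). Cdkn2b, Cdkn2c, Cdkn2a and Cdkn3 are named after their values were seen. Kat2b, an acetyltransferase, fell from 114.0 ± 6.77 to 60.4 ± 4.35 CPM, Hexim1, an inhibitor of CDK9, from 47.5 ± 3.44 to 31.5 ± 5.11 CPM, and Cdkn2d, the gene of p19INK4d, from 10.8 ± 0.41 to 8.03 ± 0.41 CPM. With library totals alone the list had 3 higher and 1 lower and a median of 0.24, the signs of Hexim1 and Cdkn2d turned, to 0.08 and 0.24, and Kat2b was not past the threshold (-0.25).

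Of 18 cyclin-dependent kinases and other cyclins of the early cycle, 8 rose (44.4%) and 3 fell (16.7%), against 23.6% and 21.1% of all genes. The median was 0.31, though without WT2 or without KO4 the number that rose was 5. Partners of the D cyclins were among those that rose. Cdk4 rose from 20.8 ± 0.58 to 35.7 ± 2.71 CPM (log2 fold change 0.78 ± 0.07, adjusted p = 1.17e-05 by edgeR) and Cdk6 from 2.41 ± 0.83 to 7.88 ± 1.06 CPM (1.69 ± 0.22, adjusted p = 1.17e-04 by edgeR). Ccni, the gene of cyclin I, rose from 63.5 ± 9.29 to 129.3 ± 15.4 CPM. Ccng2, the closest relative of Ccng1, fell from 25.6 ± 2.36 to 15.0 ± 1.89 CPM, and the phosphatase gene Cdc25a, which activates CDK2, fell from 11.7 ± 1.70 to 6.40 ± 0.53 CPM. Ccnh, a subunit of the CDK-activating kinase, fell from 25.9 ± 2.91 to 19.2 ± 0.81 CPM. With library totals alone the sign of Ccnh turned, and Ccng2 (-0.10) and Cdc25a (-0.20) were not past the threshold.

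Among 20 genes of the RB family, the E2F factors and their complexes, 4 rose (20%) and 5 fell (25%), with a median of 0.04. Over all genes these shares were 23.6% and 21.1%. While Rb1 was higher, its relative Rbl2, the gene of p130, which dominates in resting cells, fell from 62.5 ± 4.53 to 36.6 ± 2.67 CPM, and the third of the family, Rbl1, named after its values were seen, was at 3.37 ± 0.45 and 3.48 ± 0.53 CPM. The repressor E2f6 fell from 209.5 ± 13.5 to 67.6 ± 3.99 CPM (log2 fold change -1.63 ± 0.07, adjusted p = 1.97e-07 by edgeR). E2f8, a repressor made in dividing cells, went from 3 to 6 counts per WT library to 43 to 76 per KO library. Rbbp4, a histone-binding partner of RB, rose from 78.4 ± 0.94 to 135.5 ± 1.93 CPM, and Lin37, of the DREAM complex, from 5.28 ± 0.94 to 9.01 ± 1.01 CPM. E2f3 fell from 26.5 ± 3.01 to 16.7 ± 1.47 CPM. Its sign turned with library totals alone, and Rbl2 was then not past the threshold (-0.10).

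Genes of DNA replication are among those that RB and E2F factors keep off in resting cells. Of 25 DNA replication genes, 16 rose (64%) and 2 fell (8%), with a median of 0.87, against 23.6% and 21.1% of all genes. Cdt1, which loads the MCM helicase on DNA, rose from 0.59 ± 0.19 to 4.14 ± 0.34 CPM (log2 fold change 2.76 ± 0.22, adjusted p = 4.04e-06 by edgeR), Gins1 from 0.66 ± 0.06 to 2.21 ± 0.42 CPM, Mcm7 from 12.1 ± 1.32 to 17.01 ± 2.05 CPM, the last of these not past the threshold without WT2, WT3, KO1, KO3 or KO4 (adjusted p of 0.015 to 0.026 by edgeR), and Rrm2, a subunit of ribonucleotide reductase, from 1.10 ± 0.35 to 4.43 ± 2.45 CPM, a call that was lost with limma voom. The other subunit, Rrm1, fell from 41.3 ± 3.91 to 26.6 ± 1.74 CPM, and Tk1, thymidine kinase, from 5.56 ± 0.41 to 2.201 ± 0.63 CPM. The sign of Rrm1 turned with library totals alone, and Tk1 was then not past the threshold (-0.66). Rrm2 was higher in KO2 and KO4, at 7.28 and 5.68 CPM, than in KO1 and KO3, at 2.42 and 2.35. The marker sums of macrophages and leukocytes, of fibroblasts and of satellite cells followed the same split, and those of endothelial cells, adipocytes and Schwann cells did not. The part of any of these cell types in the list was not tested.

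Of 24 mitosis genes in the table, 4 rose (16.7%) and 1 fell (4.17%), both below the 23.6% and 21.1% of all genes. Still, 22 had a log2 fold change above 0, with a median of 1.15, where 54.2% of all genes were above 0. The number that rose was 1 or 2 without WT1, WT2, WT3, WT4, KO2 or KO4. Bub1b, of the spindle checkpoint, rose from 1.07 ± 0.21 to 3.29 ± 0.79 CPM, and Aurka, the kinase of the spindle poles, fell from 11.9 ± 3.16 to 2.05 ± 0.67 CPM (log2 fold change -2.53 ± 0.27, adjusted p = 2.60e-05 by edgeR). Mki67, the common marker of cycling cells, named after its values were seen, was at 1.58 ± 0.70 and 4.66 ± 2.48 CPM and did not pass the threshold.

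Protein levels of p21, p27 and the D cyclins are set largely by ubiquitin ligases. Of 17 measured genes of their turnover, 4 rose (23.5%) and 5 fell (29.4%), with a median of 0.00. Over all genes these shares were 23.6% and 21.1%. Rnf123, a ligase subunit for p27, fell from 207.1 ± 25.4 to 104.1 ± 9.48 CPM, its partner Ubac1 from 245.6 ± 15.4 to 153.8 ± 7.56 CPM, and Fbxo31, which directs cyclin D1 to breakdown, from 189.8 ± 7.97 to 105.4 ± 27.6 CPM. Ddb1, an adaptor of the CUL4 ligases, rose from 274.4 ± 21.95 to 390.3 ± 17.5 CPM, Cks1b, the helper of SKP2 on p27, from 2.01 ± 0.32 to 3.95 ± 0.50 CPM, and Fbxo4 from 4.13 ± 0.45 to 6.52 ± 1.12 CPM. The call of Fbxo4 was lost without WT1, WT2, WT4, KO1, KO2 or KO4, at adjusted p of 0.011 to 0.017 by edgeR, with the replicate block and with limma voom. Fbxo31 (-0.18) and Ubac1 (-0.0046) were not past the threshold with library totals alone.

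Of 26 transcription factors that are known to act on the Cdkn1a promoter, 8 rose and 5 fell, with a median of 0.17. As shares this was 30.8% and 19.2%, against 23.6% and 21.1% of all genes. The muscle factor Myog rose from 6.59 ± 2.30 to 102.9 ± 23.2 CPM (log2 fold change 3.96 ± 0.25, adjusted p = 1.03e-06 by edgeR), while Myod1, named after its values were seen, was at 17.7 ± 1.70 and 19.5 ± 8.69 CPM. Runx1 rose from 2.91 ± 0.64 to 30.4 ± 7.92 CPM and Myc, which represses Cdkn1a, from 3.27 ± 0.24 to 25.9 ± 3.08 CPM. The stress factors Atf4 and Ddit3, the gene of CHOP, named after their values were seen, rose from 172.6 ± 17.2 to 412.9 ± 35.7 CPM and from 10.5 ± 0.33 to 64.8 ± 13.9 CPM. Smad3 and Foxo4, which act on Cdkn1a in the TGF-beta and insulin pathways, fell from 156.6 ± 23.2 to 34.0 ± 2.26 CPM and from 232.5 ± 24.9 to 91.6 ± 10.5 CPM. Nr3c1, the glucocorticoid receptor gene, fell from 97.3 ± 8.71 to 61.6 ± 4.72 CPM, a sign that turned with library totals alone.

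Some values may hold reads of neighbours, because the sources used here do not say whether the counting used strand. By GENCODE M21 the exons of Cdkn1a, Cdkn1c, Ccnd1, Ccnd2, Ccnd3 and Rb1 overlap those of other genes on the opposite strand, such as Bysl for Ccnd3, while those of Cdkn1b, Trp53, Mdm2 and Ccng1 overlap none.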

How the data were processed

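Polyadenylated RNA of 8 muscles was analysed. The authors trimmed reads (bcl2fastq 2.20.0.422, cutadapt), mapped them with STAR 2.5.4b to GRCm38 and deposited raw exon counts from Rsubread, without duplicate or multimapping reads and without genes under 50 reads in total. The deposited FPKM values, used only to check the order of levels, come from the same counts and the deposited exon widths. The authors' own DESeq2 1.32.0 columns (log2 fold changes and p-values) were not used. The labels name TRIzol for extraction, the methods another kit.

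Counts of all 14012 genes were fitted with edgeR 4.0.16 (R 4.3.3), TMM factors and the quasi-likelihood test, with the label as the only term, Benjamini-Hochberg adjustment and a threshold of 0.01. CPM per kb divides by exon width, and log2 CPM used a prior count of 2. Depth was 16017565 to 20361144 counts per library. The floor for a count of 0 covers counting error only, while SDs and standard errors also hold the differences between libraries. The labels name a separate mouse for each library, and replicates differed by more than sampling noise. The 10 genes and all lists were chosen with earlier results of these data known. From each pathway list, at most 3 genes at either end of the log2 fold changes were named, if past the threshold, free of overlap and averaging 50 or more counts in the group where they were higher. Any other gene named was chosen after its values were seen. Listed symbols not analysed here are Cop1, Trp73, Ttk, Skp1 and Vdr. On simulated data of 13990 genes the test recovered 99% of 100 changes of 2 and 74% of 100 changes of 1 on the log2 scale. All simulated libraries were drawn from the WT profile, without the lower share of abundant mRNAs seen in KO, so the scaling was not checked. Alternatives were other scalings, filters, depth, DESeq2 1.42.0, limma 3.58.1, the threshold, a replicate block and each library left out. Promoter windows are from RefSeq on GRCm38.p6.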

Additional observations from a re-analysis of the deposited data

Results flagged for a closer look

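In 57 genes, taken in each group of 4 libraries, 114 sets of values were checked for a library far from the other 3, by Dixon's ratio of the gap to the range. No member stood out. In 4 sets a library did, where chance alone flags about 1 in 20. Rpl11 was at 213.5 CPM in KO2 and at 219.1 to 219.8 CPM in the other KO libraries. Ccni was at 106.4 CPM in KO2 and at 133.7 to 138.6 CPM in the others. Ccng2 was at 29.1 CPM in WT3 and at 24.1 to 24.7 CPM in the other WT libraries. Lin37 was at 3.88 CPM in WT1 and at 5.61 to 5.87 CPM in the others. For all 4 genes the groups did not overlap with these libraries included.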

How the results depend on the processing

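With library totals alone the median of the log2 fold changes over all genes was 0.73 instead of 0.07, and that of the members was 4.24 for Cdkn1a, 0.28 for Cdkn1b (from -0.38), 1.53 for Cdkn1c, 1.44 for Trp53, 0.84 for Mdm2, -0.85 for Ccng1, 0.45 for Ccnd1, 0.97 for Ccnd2, 0.96 for Ccnd3 and 1.94 for Rb1, with 9 members past the threshold. The sign turned for Usp7 (0.20), Hexim1 (0.080), Cdkn2d (0.24), Ccnh (0.24), E2f3 (0.0055), Rrm1 (0.034) and Nr3c1 (0.010). Of all genes 8498 were then higher and 873 lower, instead of 3303 and 2962. The lists then had 2 p53 targets lower, 16 regulators higher and 1 lower, 3 INK4 and other inhibitors higher and 1 lower, 13 kinases and cyclins higher and 0 lower, 12 RB and E2F genes higher and 1 lower, 0 replication genes lower, 14 mitosis genes higher, 10 turnover genes higher and 1 lower, and 17 transcription factors higher and 2 lower. Mitosis genes higher numbered 2 with RLE factors, 2 without the 20 most abundant genes, 2 after thinning, 8 with DESeq2 (2 lower), 1 with limma voom and 11 at an adjusted p under 0.05 (2 lower). With a mean of at least 5 CPM required, 6 replication genes were higher and 1 lower and 0 mitosis genes were higher, because fewer genes were tested. The only mitosis genes left were Aurka and Tpx2, and their median was -1.86 instead of the 1.15 of the whole list. At an adjusted p under 0.05, 2 INK4 and other inhibitors were higher. Leaving out each library in turn gave 1 to 5 mitosis genes higher, 0 to 1 INK4 and other inhibitors higher, and 5 to 7 kinases and cyclins higher. No label ties the replicate numbers to a shared litter, batch or day, and libraries of the same number correlated at 0.003 to 0.42, not all above 0.1, so the numbers were used only as names. With the replicate block 8 mitosis genes and 1 INK4 or other inhibitor were higher. As a hint from the data and not from the design, 3 of 4 KO libraries correlated best with the WT library of their number, as did 3 of 4 WT libraries with KO. Of the 47 genes named by the rule that are no members, 28 stayed past the threshold in every alternative, and the sign of none turned except with library totals alone. The genes named after their values were seen were not rerun. With a prior count of 0.5, 3 of the 5 genes most like Cdkn1a were shared and all 5 of those most like Ccng1. The order of the members by level per length was the same with the deposited FPKM values. The causes of the other changes were not tested.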
